A study of Mus musculus with 6 samples.

Results

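Btg4 and 9 genes of the CCR4-NOT deadenylase, Cnot1, Cnot2, Cnot3, Cnot6, Cnot6l, Cnot7, Cnot8, Cnot10 and Cnot11, were followed in mouse zygotes and 2-cell embryos by metabolic labelling of new RNA. They were taken by gene name. Of these 10 genes, 9 stand in the table under their own names, and Cnot11 was read from the row of its older symbol D1Bwg0212e, which RefSeq lists as a synonym. The table holds 23259 gene names in all. The groups were zygotes of the genotype Pabpn1l-null, WT 2-cell embryos and WT zygotes, with 2 samples of 50 embryos each. Per the labels, embryos from mated females were kept for 2 h in medium with 200 μM 4-thiouridine, starting 26 h after hCG, the hormone that triggers ovulation. That text speaks of zygotes for every sample, and no label gives the collection time of the 2-cell embryos. Nor do the labels give strain, age or how the Pabpn1l allele was made.

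The CCR4-NOT complex shortens the poly(A) tails of mRNAs, the step that starts the decay of most of them. CNOT1 is its scaffold, CNOT2 and CNOT3 form the module that contacts targets and regulators, CNOT10 and CNOT11 bind the N-terminal part of CNOT1, and the catalytic subunits are CNOT6 or CNOT6L together with CNOT7 or CNOT8. BTG4 is an adapter of oocytes and early embryos that binds CNOT7 or CNOT8 and brings the complex to maternal mRNAs, and PABPN1L, a poly(A)-binding protein of the same cells, works with BTG4. Embryos depend on this decay to clear the RNA that the egg had stored.

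4-Thiouridine is built into RNA during transcription, and after alkylation its positions are read as C in place of T. A read with such a mismatch is called a T-to-C read here. No unlabelled sample was analysed here, so the part of T-to-C reads that comes from sequencing error is unknown. The deposited table gives 1 column of total reads and 1 of T-to-C reads per group, so the spread between the 2 samples of a group cannot be measured and no difference below has a replicate check. Every comparison is one between libraries, not between conditions.

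The null column held 1270347 reads on named genes, the 2-cell column 4020444 and the WT zygote column 3001472, of which 3.86%, 4.54% and 3.03% were T-to-C reads. Zeros were frequent in the null column: 1295 genes should have had 3 to 5 reads there at their WT zygote level. Of those, 58.3% had 0, where independent reads at that level would leave 2.27% at 0. Whether clumped reads, counting error in the WT zygote column or real differences gave these zeros was not tested. Intervals treat 7 reads as 1 molecule (a clump) in every column, a size estimated from these zeros alone. It was not checked in the WT columns or in T-to-C reads. The limit that a count of 0 allows is 3 molecules (21 reads). Intervals of ratios and shares are exact 95% Clopper-Pearson intervals, those of levels are exact 95% Poisson intervals, and all cover counting error only. Pabpn1l had 4 reads in null zygotes, 14 in 2-cell embryos and 47 in WT zygotes, and the ratio of null to WT zygotes was 0.188 (0.000379 to 2.19), so its lower count in the column labelled null was within counting error. The 14 oocyte and zygote markers summed to 23793 reads in null zygotes, 13672 in 2-cell embryos and 43492 in WT zygotes, with none at 0. Scaled to library size (RPM) these sums were 17752.9, 3544.4 and 14667.2. In the same order the 11 markers of 2-cell embryos summed to 8, 16852 and 100 reads, with 10, 2 and 4 at 0. Of the 15 cumulus and granulosa cell markers, 12, 8 and 8 had no read, with sums of 68, 316 and 268 reads. The 10 sperm markers summed to 274, 1766 and 445 reads, mostly Odf2, or 204.4, 457.8 and 150.1 RPM, and the 7 blood markers to 1, 53 and 42. Their part in the results below was not tested. In these bulk samples fewer cells of a type and less RNA per cell cannot be told apart.

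Btg4 was called in neither comparison of total reads, a call being a scaled level at least 2-fold apart with a ratio whose interval left out 1. The gene lies on chromosome 9 at 51102147 to 51119924 (RefSeq on GRCm38.p6, the assembly of mm10, for this and the other genes). It had 1619 reads in null zygotes, 4491 in 2-cell embryos and 3984 in WT zygotes, which after TMM scaling is 1208.0, 1164.3 and 1343.6 RPM, the library-size normalised unit of reads. WT zygotes were the highest, null zygotes next and 2-cell embryos the lowest, and the intervals of all 3 levels overlap (1057.3 to 1374.1 in null zygotes, 1075.9 to 1258.0 in 2-cell embryos and 1235.4 to 1458.6 in WT zygotes). Null zygotes stood at 0.899 of the WT zygote level (0.768 to 1.05) and 2-cell embryos at 0.867 (0.773 to 0.972). With RLE factors in place of TMM its ratio in 2-cell embryos was 1.05, so the direction of this small difference depends on the scaling.

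Cnot2 was the one member called lower in Pabpn1l-null zygotes. It had 131 reads in null zygotes and 655 in WT zygotes, or 97.7 and 220.9 RPM, a ratio of 0.443 (0.254 to 0.732). The 2-cell embryos, with 988 reads or 256.1 RPM, did not share this low level. Cnot2 lies on chromosome 10 at 116485160 to 116581900, and the call was the same under RLE factors (0.444) and with column totals alone (0.473). Of the 10 members tested in total reads, 0 were called higher and 1 lower, in a table where 4.75% of 11262 genes tested were called, 2.18% higher and 2.57% lower.

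The catalytic subunits Cnot6l and Cnot6, of the exonuclease-endonuclease-phosphatase type, had ratios below 1 without being called. Cnot6l, a deadenylase known from mouse oocytes, lies on chromosome 5 at 96070333 to 96164198. It had 909 reads in null zygotes and 3520 in WT zygotes (678.2 and 1187.1 RPM). Its ratio of 0.571 (0.467 to 0.694) left out 1 but did not reach 2-fold, so Cnot6l was not called. Cnot6l has another row in the table, which may hold a different part or transcript of the gene. That row gave nearly the same ratio, 0.561 (0.391 to 0.79), from 298 reads in null and 1175 in WT zygotes. Cnot6 had 19 and 121 reads, a ratio of 0.347 (0.0585 to 1.25) that was within counting error.

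The other subunits were not called between the zygotes. Cnot7, a DEDD-type deadenylase, had 797 reads in null and 1984 in WT zygotes, a ratio of 0.889 (0.709 to 1.11). Its close relative Cnot8 had 233 and 507 reads, a ratio of 1.02 (0.653 to 1.55). For both, a 2-fold difference lies outside the interval. The scaffold gene Cnot1 had 27 and 55 reads (1.09, 0.232 to 4.13), Cnot3 had 50 and 106 (1.04, 0.364 to 2.7), Cnot10 had 8 and 27 (0.656, 0.0193 to 6.26) and Cnot11 had 53 and 129 (0.909, 0.334 to 2.22). For these 4 genes the intervals hold 2-fold differences either way, so such a difference was not detectable at this depth. The median log2 ratio of the 10 members was -0.16, beside -0.24 for all genes tested, or 0 for all genes when the 1806 genes with no read in 1 of the columns are set at their bound. Summed over the members, the null column held 2869.7 RPM and the WT zygote column 3739.3. Genes with many reads weigh most in these sums, and Cnot6l, which was not called, held 678.2 and 1187.1 RPM of them.

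**Figure D1:**
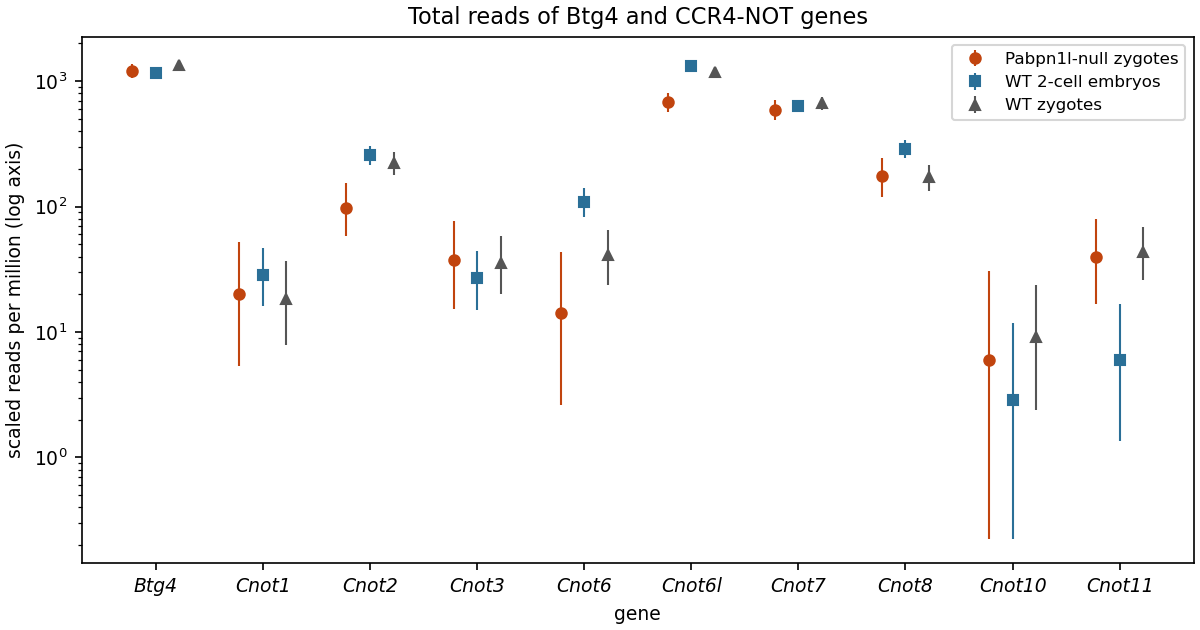
Scaled total reads in RPM (log axis) of the 10 genes in Pabpn1l-null zygotes, WT 2-cell embryos and WT zygotes, 1 column each, with exact 95% Poisson intervals on molecules of 7 reads. Levels can be compared within a gene, not between genes, since they are not per length. Btg4 lies near the same level in all columns (1208.0, 1164.3 and 1343.6), Cnot2 is low in null zygotes (97.7) and Cnot11 is low in 2-cell embryos (5.96).

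At the 2-cell stage Cnot6 was higher and Cnot11 lower than in WT zygotes. Cnot6 had 418 reads in 2-cell embryos and 121 in WT zygotes, or 108.4 and 40.8 RPM, a ratio of 2.66 (1.53 to 4.83). Cnot11 had 23 and 129 reads, or 5.96 and 43.5 RPM, a ratio of 0.137 (0.0284 to 0.449). The 2-cell count of Cnot11 was near the limit of 21 reads (5.44 RPM), so the size of this difference is uncertain. The level of Cnot11 in null zygotes, 39.5 RPM, was near that of WT zygotes. Cnot6 lies on chromosome 11 at 49671497 to 49713401 and Cnot11 on chromosome 1 at 39535701 to 39546881. Thus 1 of 10 members was higher and 1 lower, while 36.7% of the 11262 genes tested were called in this comparison (18.6% higher, 18.1% lower), so the members' calls are no excess over the table. Neither call changed with RLE factors, under which the median log2 ratio of all genes moved to 0.31, beside 0.04 with TMM.

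Cnot8 had 1112 reads in 2-cell embryos and 507 in WT zygotes, or 288.3 and 171.0 RPM. Its ratio of 1.69 (1.27 to 2.26) left out 1 without reaching 2-fold, and under RLE factors it was 2.05 and called. Cnot7 had 2432 and 1984 reads, a ratio of 0.942 (0.803 to 1.11), or 1.14 with RLE factors. The values for Cnot6l were 5108 and 3520 reads (1.12, 0.994 to 1.25) and those for Cnot2 988 and 655 (1.16, 0.887 to 1.52). These 3 genes thus stood within 2-fold of their zygote level. Cnot1 (110 and 55 reads; 1.54, 0.615 to 4.19), Cnot3 (104 and 106; 0.754, 0.343 to 1.65) and Cnot10 (11 and 27; 0.313, 0.0188 to 2.51) were not called. The members' median log2 ratio was 0.04, as was that of all genes, which is 0 with the 700 genes at 0 in 1 column set at their bound.

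**Figure D2:**
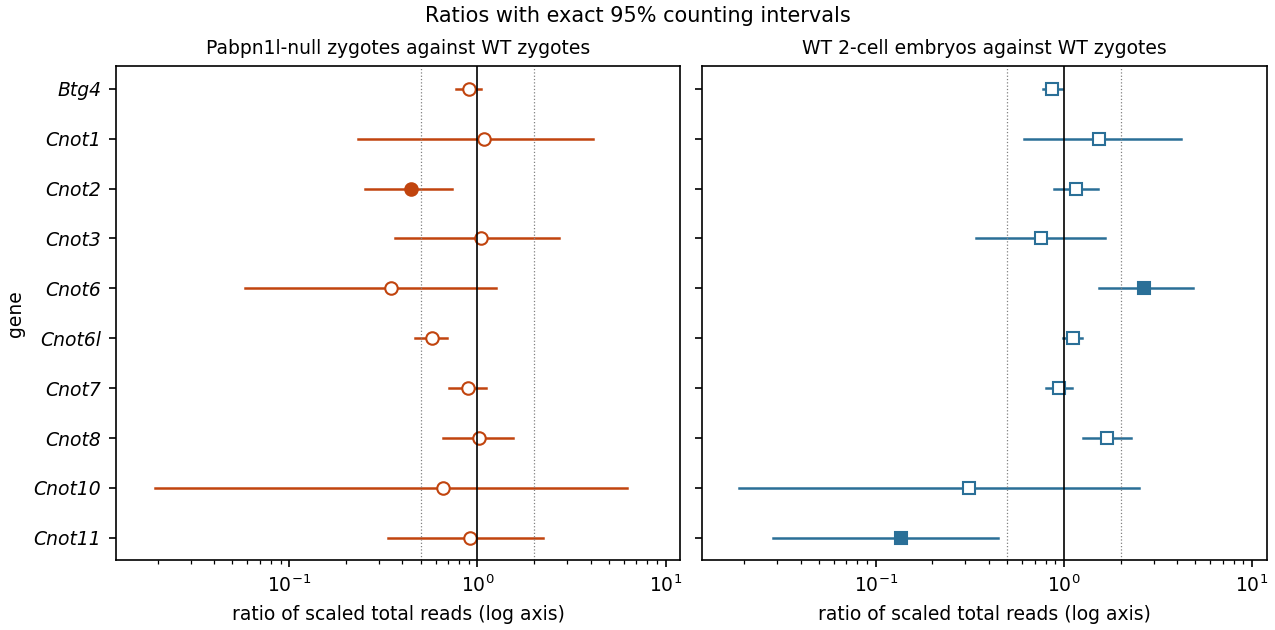
Ratios of scaled total reads (log axis) with exact 95% intervals, Pabpn1l-null zygotes against WT zygotes on the left and WT 2-cell embryos against WT zygotes on the right. Both panels share the WT zygote column, filled symbols mark called genes and dotted lines mark 2-fold. Cnot2 is called on the left (0.443), Cnot6 (2.66) and Cnot11 (0.137) on the right.

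Cnot8 was the one member called in labelled reads in 2-cell embryos. In 2-cell embryos 185 of its 1112 reads were T-to-C reads, or 16.6% (11.2% to 23.4%). In null zygotes there were 4 of 233 (1.72%, 0.00383% to 13.6%) and in WT zygotes 6 of 507 (1.18%, 0.0176% to 7.13%). The 2-cell share stood above both zygote values, and its interval did not overlap that of WT zygotes, although it did overlap the wide one of null zygotes. Cnot8 lies on chromosome 11 at 58092794 to 58118597. Scaled T-to-C reads were 23.7 times those of WT zygotes (3.51 to 1644.4), and the share was 14.1 times as high. With T-to-C reads scaled by their own column totals, the ratio of 23.7 became 15.4. The 6 T-to-C reads in WT zygotes are fewer than the 7 counted as 1 molecule, so the sizes of these differences are uncertain. Of the 3410 genes with at least 200 reads in 2-cell embryos, 190 had a higher share than Cnot8, and their median was 2.09%. In WT zygotes Cnot8 was below the median share of 2.17%. Among members, Cnot8 was the 1 of 8 called in T-to-C reads and the 1 of 9 called in T-to-C share, where 10.9% of 4376 genes tested in T-to-C reads (7.84% higher, 3.06% lower) and 2.33% of 6909 tested in share (2.26% higher, 0.0724% lower) were called. Setting T-to-C reads aside, Cnot8 had 927 reads in 2-cell embryos and 501 in WT zygotes, a ratio of 1.42 (1.06 to 1.92). Which part of the reads without a mismatch, here and below, came from new RNA was not measured.

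The members' summed T-to-C reads were 132 in null zygotes, 480 in 2-cell embryos and 245 in WT zygotes. Cnot8 held 38.5% of them in 2-cell embryos, 3.03% in null zygotes and 2.45% in WT zygotes. Of total reads it held 7.52% in 2-cell embryos, 6.06% in null zygotes and 4.57% in WT zygotes.

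Btg4 was not called in T-to-C reads or share in either comparison. Its T-to-C reads numbered 85 in null zygotes, 92 in 2-cell embryos and 93 in WT zygotes. The corresponding shares were 5.25% (2.75% to 8.96%), 2.05% (1.1% to 3.47%) and 2.33% (1.26% to 3.94%). The null share was the highest, at 2.25 times the WT zygote share, but the intervals overlapped and it was not called. Scaled T-to-C reads of Btg4 in null against WT zygotes gave 2.02 (0.85 to 4.77), also not called. When only the null column was counted in clumps, or no column was, the ratio of 2.02 was called. Over whole columns the share was 3.86% in null and 3.03% in WT zygotes. With T-to-C reads scaled by their own column totals, the Btg4 ratio was 1.7 in place of 2.02 and not called. Beyond this scaling, the part of the column shares in the Btg4 value was not tested. Over all genes tested, 0.754% of 4376 were called in T-to-C reads (0.663% higher, 0.0914% lower) and 0.0% of 5999 in share. Of 8 members tested in each measure, 0 were called between the zygotes. Cnot3 and Cnot6, with 0 T-to-C reads in null and 3 in WT zygotes, entered the count of T-to-C reads through their 2-cell reads. They could not have been called there, nor could Cnot1 in share, with 0 T-to-C reads in both zygotes. Cnot2 and Cnot11 also had 0 in null zygotes, and their ratio intervals still reached 2.88 and 36.8. Neither could have been called lower. In share the null intervals of Cnot2, Cnot3 and Cnot11 reached 17.9%, 40.3% and 38.6%, above the lower ends in WT zygotes. A lower call was out of reach there too. With 0.0% of all genes called in share, the 0 members called say little. In 2-cell embryos the T-to-C reads of Btg4 stood at 0.76 of the WT zygote value (0.327 to 1.77).

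The T-to-C shares of Cnot6l and Cnot7 were not called in either comparison. Cnot6l had 27 in null zygotes, 108 in 2-cell embryos and 71 in WT zygotes, shares of 2.97%, 2.11% and 2.02%. Cnot7 had 16, 34 and 29, shares of 2.01%, 1.4% and 1.46%. Both lay near or below the median of genes with at least 200 reads, which was 3.02% in null zygotes, 2.09% in 2-cell embryos and 2.17% in WT zygotes. Cnot2 had 0 of 131 T-to-C reads in null zygotes, which allows a share of up to 17.9%, 30 of 988 in 2-cell embryos (3.04%) and 31 of 655 in WT zygotes (4.73%, 1.42% to 11.2%). Cnot6, although higher in total reads at the 2-cell stage, had 13 T-to-C reads of 418 there (3.11%, 0.336% to 11.2%) and 3 of 121 in WT zygotes (2.48%). Cnot3 had 0, 10 and 3 T-to-C reads in null zygotes, 2-cell embryos and WT zygotes, Cnot1 had 0, 6 and 0, Cnot11 had 0, 2 and 9, and Cnot10 had none. None of these was called.

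**Figure D3:**
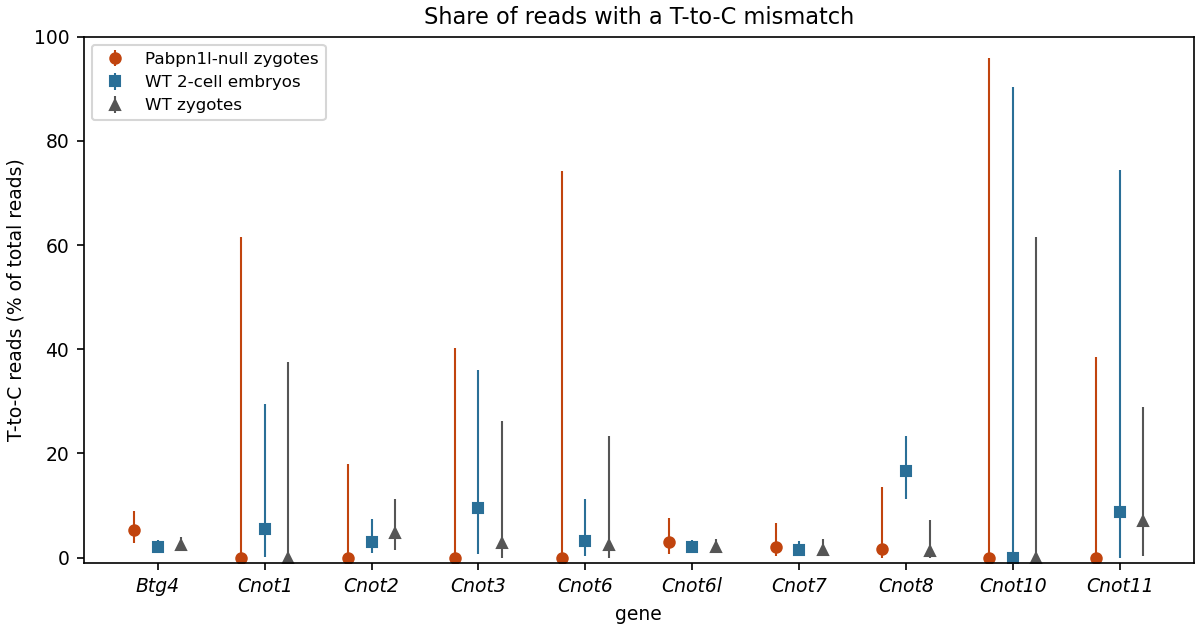
T-to-C reads as a percentage of total reads for the 10 genes in Pabpn1l-null zygotes, WT 2-cell embryos and WT zygotes, with exact 95% intervals on molecules of 7 reads. Cnot8 in 2-cell embryos (16.6%) lies above its WT zygote value (1.18%) with no overlap of intervals, and the wide bars of Cnot1, Cnot10 and other low genes show how little their shares are constrained.

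**Figure D4:**
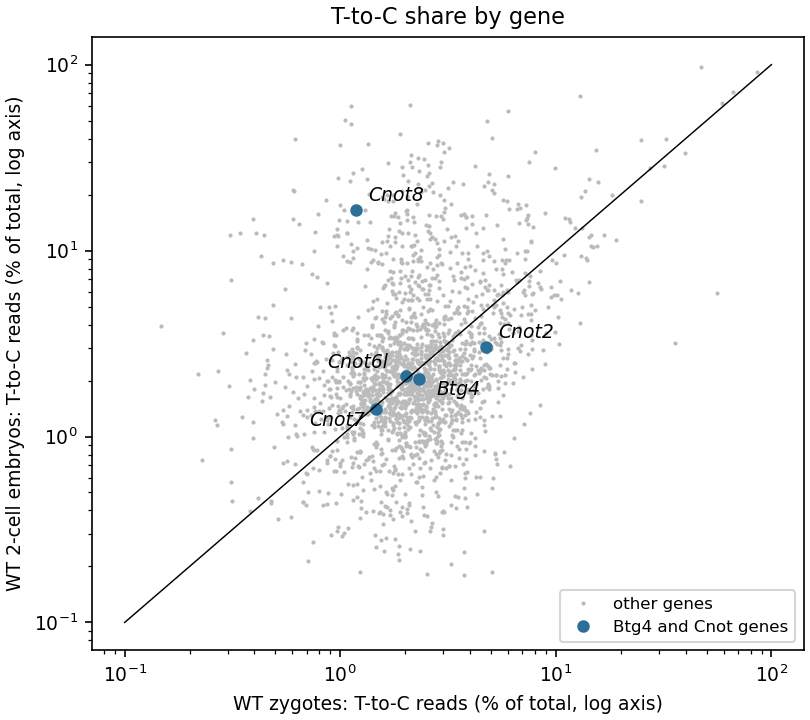
T-to-C share of 2090 genes with at least 200 reads in both WT columns, WT 2-cell embryos on the vertical and WT zygotes on the horizontal axis (both log). The 63 genes with no T-to-C read in 1 of the columns are not drawn, and the line marks equal shares. Cnot8 (16.6% and 1.18%) lies far above the line, and Btg4, Cnot6l and Cnot7 lie in the main cloud close to it.

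At the 2-cell stage Cnot8 was called higher in T-to-C reads and Cnot6 in total reads, while Btg4 was called in neither. Promoters of Btg4, Cnot8 and Cnot6 are shown. Each is 300 bases from RefSeq on GRCm38.p6, from 250 before to 50 after an annotated start, written 5′ to 3′ on the gene's strand with CpG dinucleotides in capitals. Btg4 is chr9:51115751-51116050 on the plus strand, Cnot8 has 4 annotated starts on the plus strand, of which the most upstream, chr11:58092544-58092843, and the next, chr11:58103720-58104019, are shown, and Cnot6 is chr11:49712673-49712972 on the minus strand. The Btg4 and Cnot6 windows lie inside the spans of these genes given above and leave out the upstream ends of those spans. Which start was used in these embryos was not measured.
Btg4: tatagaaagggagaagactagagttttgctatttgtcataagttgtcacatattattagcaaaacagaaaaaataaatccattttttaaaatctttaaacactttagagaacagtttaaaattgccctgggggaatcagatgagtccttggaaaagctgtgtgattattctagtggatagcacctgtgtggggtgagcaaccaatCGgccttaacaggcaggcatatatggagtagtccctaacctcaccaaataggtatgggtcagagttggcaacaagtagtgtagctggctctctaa
Cnot8 upstream start: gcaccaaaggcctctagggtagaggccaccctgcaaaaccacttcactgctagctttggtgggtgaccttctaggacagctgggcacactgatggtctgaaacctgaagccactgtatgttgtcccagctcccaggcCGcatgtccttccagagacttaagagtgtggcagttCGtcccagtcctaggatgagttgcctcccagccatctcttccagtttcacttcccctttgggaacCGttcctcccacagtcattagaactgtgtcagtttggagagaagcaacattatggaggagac
Cnot8 downstream start: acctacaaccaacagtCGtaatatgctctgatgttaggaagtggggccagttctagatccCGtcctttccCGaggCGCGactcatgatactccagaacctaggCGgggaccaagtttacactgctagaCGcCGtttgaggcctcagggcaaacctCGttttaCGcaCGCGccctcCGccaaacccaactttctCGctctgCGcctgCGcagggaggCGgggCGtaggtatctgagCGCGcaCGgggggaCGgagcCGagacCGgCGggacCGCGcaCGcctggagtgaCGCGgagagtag
Cnot6: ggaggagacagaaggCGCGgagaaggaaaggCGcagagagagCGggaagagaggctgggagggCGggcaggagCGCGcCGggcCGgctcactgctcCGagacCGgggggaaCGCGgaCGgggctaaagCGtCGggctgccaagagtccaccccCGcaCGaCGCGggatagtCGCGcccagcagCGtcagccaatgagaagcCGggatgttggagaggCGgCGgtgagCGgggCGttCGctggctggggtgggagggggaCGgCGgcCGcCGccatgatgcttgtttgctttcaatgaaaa

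The Btg4 window shown, at a start inside the gene's span, was poor in CpG. It held 1 CpG and 39.0% G and C, and 5.43% of the 32851 promoters in the table held fewer CpGs. The downstream start of Cnot8 held 30 CpGs at 61.7% G and C and its upstream start 3 at 53.3%, while Cnot6 held 33 at 68.7%. The medians of all promoters were 7.0 CpGs and 52.7%. The CCAAT box, searched as CCAAT on both strands, occurred once in Btg4 and once in Cnot6 and in neither Cnot8 window shown, and 37.4% of all promoters held it. The GC box GGGCGG was found once in Cnot6 and not in Btg4 or these Cnot8 windows (35.7% of all promoters). The other Cnot8 windows, which are not shown, held it 2 times (chr11:58103979-58104278) and 1 time (chr11:58104059-58104358). The letters TATAAA (13.6%), GGATTA, the core bound by bicoid-type homeodomains (7.06%), and the E-box CACGTG (7.15%) were found on neither strand of any of the 4 windows. Promoters were matched for 8 of the 10 genes, all but Cnot1 and Cnot7.

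Within each pair of alternative catalytic subunits Cnot8 and Cnot6 held a higher share in 2-cell embryos than in WT zygotes. The level of such a share depends on the lengths of both transcripts, so it does not say which gene is the more abundant. Scaling between columns does not enter it, and for fixed transcripts a difference between columns does not come from length. Cnot8 made up 22.6% (16.1% to 30.2%) of the summed Cnot7 and Cnot8 reads in null zygotes, 31.4% (27.4% to 35.6%) in 2-cell embryos and 20.4% (16.3% to 24.9%) in WT zygotes. Among T-to-C reads of the pair, Cnot8 made up 84.5% (67.1% to 94.9%) in 2-cell embryos, and 17.1% (0.252% to 69.3%) in WT zygotes, where the pair had 35 T-to-C reads, and these intervals overlap slightly. In null zygotes it had 4 of the pair's 20 T-to-C reads, a share with an interval of 0.0417% to 85.3%. Among reads without a T-to-C mismatch it was 27.9% (23.9% to 32.1%) in 2-cell embryos and 20.4% (16.3% to 25.0%) in WT zygotes, and these intervals overlapped. Cnot6 made up 2.05% (0.378% to 6.15%) of the Cnot6 and Cnot6l reads in null zygotes, 7.56% (5.82% to 9.64%) in 2-cell embryos and 3.32% (1.96% to 5.25%) in WT zygotes. The values of 2-cell embryos and WT zygotes did not overlap in total reads for either pair. This measure was chosen after the values had been seen.

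**Figure D5:**
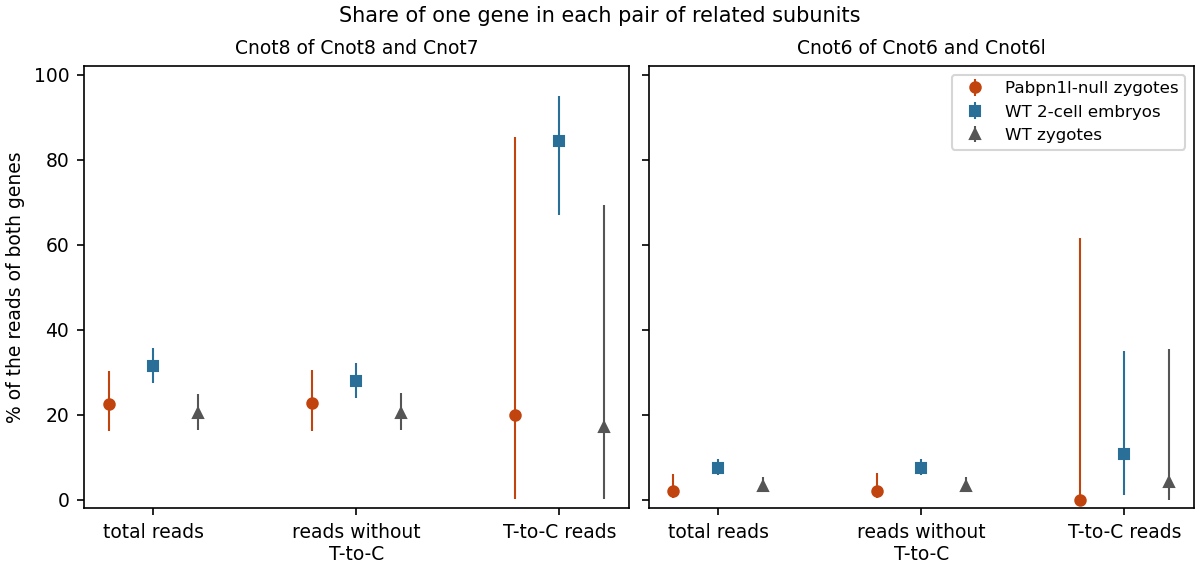
Percentage of Cnot8 in the reads of Cnot8 and Cnot7 (left) and of Cnot6 in those of Cnot6 and Cnot6l (right), for total reads, reads without a T-to-C mismatch and T-to-C reads, in Pabpn1l-null zygotes, WT 2-cell embryos and WT zygotes with exact 95% intervals. Cnot8 makes up 84.5% of the pair's T-to-C reads in 2-cell embryos but 31.4% of their total reads.

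Related subunits can share reads, and members can share reads with neighbours. Cnot7 and Cnot8, and Cnot6 and Cnot6l, are similar in sequence, and neither the handling of reads that map to several places nor the use of strand is given in the sources used here. In RefSeq, Cnot7 overlaps Vps37a, which had 148, 119 and 326 reads in null zygotes, 2-cell embryos and WT zygotes. Its T-to-C reads, 4, 34 and 18 in the same columns, are of the same order as the 16, 34 and 29 of Cnot7, whose labelled counts are uncertain for that reason. Btg4 overlaps Hoatz, which was not analysed here. Cnot3 overlaps Leng1 (73, 162 and 106 reads) and Cnot1 overlaps Setd6 (20, 47 and 51 reads). The counts of Setd6 and Leng1 are of the same order as those of Cnot1 and Cnot3, whose values are uncertain for that reason. Gm12248, which overlaps the upstream end of Cnot8, was not analysed here.

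Of 61 other genes of deadenylation and decay in the table, 54 were tested in total reads. Both comparisons share the WT zygote column. In null against WT zygotes 3 were higher and 3 lower, beside 2.18% higher and 2.57% lower over all genes tested. Higher were the decapping activators Dcp1a (3464 and 2858 reads; 2.68, 2.35 to 3.06) and Edc4 (204 and 203 reads; 2.22, 1.28 to 3.85), and Lsm14b, an mRNA storage protein of oocytes (1659 and 1549 reads; 2.37, 1.96 to 2.86). Lower were Cnot4, a ubiquitin ligase that binds the complex in yeast (43 and 363 reads; 0.262, 0.0933 to 0.605), the GW182 family gene Tnrc6b (163 and 1079 reads; 0.334, 0.206 to 0.519) and the Argonaute gene Ago3, listed as Eif2c3 (115 and 518 reads; 0.491, 0.269 to 0.847). The list's median log2 ratio was -0.29, or 0 with its 6 members at 0 in 1 column set at their bound, beside -0.24 for all genes. Cnot4 has a further row that gave 1.26 (0.627 to 2.43) from 108 and 190 reads, so its call rests on which row is taken. In T-to-C reads Dcp1a alone of 34 tested was called, with 73 and 44 reads (3.67, 1.24 to 11.9), and in share 0 of 40, beside 0.754% and 0.0% over all genes tested. Cnot9, a core subunit listed as Rqcd1, was called in neither comparison.

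In 2-cell embryos against WT zygotes 19 of the 54 were higher and 10 lower, beside 18.6% higher and 18.1% lower over all genes tested. The median log2 ratio of the list was 0.68, beside 0.04 for all genes tested. The list was chosen with earlier results of these data known. The 6 called genes farthest from 1 included relatives of Btg4 that bind the same deadenylases. Btg1 had 898 reads in 2-cell embryos and 36 in WT zygotes (19.2, 8.09 to 58.9), and Tob1 had 932 and 101 (7.09, 4.11 to 13.2). The AU-rich element binding protein genes Zfp36l1 (125 reads and 1 read; 96.1, lower end 3.09) and Zfp36 (148 and 12; 9.48, 2.13 to 107.8) and the Argonaute genes Ago1, listed as Eif2c1 (176 and 11; 12.3, 2.68 to 163.1), and Ago2, listed as Eif2c2 (511 and 48; 8.18, 3.75 to 21.3), completed them. The WT zygote counts of Zfp36l1, Zfp36 and Ago1 were below the limit of 21 reads, so the sizes of these differences are uncertain. In T-to-C reads 2 of 34 were higher and 1 lower, beside 7.84% higher and 3.06% lower over all genes tested. Dcp2, the decapping enzyme, had 425 T-to-C reads of 2610 in 2-cell embryos and 31 of 1537 in WT zygotes, shares of 16.3% and 2.02%, and was the 1 of 42 called in share, beside 2.26% called higher over all genes tested. Cpeb4, a regulator of poly(A) tail length, had 106 and 4 T-to-C reads (20.4, lower end 2.1), and Ccrn4l, which encodes the deadenylase-related protein nocturnin, had 14 and 61 (0.176, 0.0185 to 0.861).

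Genes were ranked by how close their pattern over the groups was to that of Btg4. Of 5244 genes with at least 200 reads over the 3 columns and none of them at 0, 176 lay within 0.2 log2 units of it (Euclidean distance of centred log2 levels). The 5 nearest were Plekhg1 (0.00892), Ccdc92 (0.0151), Wdr47 (0.0194), Plaa (0.0224) and Stxbp6 (0.0237). Plekhg1 had 541 reads in null zygotes, 1488 in 2-cell embryos and 1328 in WT zygotes, with T-to-C shares of 4.25%, 2.55% and 2.26%. Of the 7 other members ranked, Cnot7 was the closest to Btg4, at rank 51 (0.106), then Cnot3 at rank 385 (0.294), while Cnot6 (2.11) and Cnot11 (2.18) were the farthest.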

How the data were processed

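Total RNA of mouse zygotes and 2-cell embryos was labelled with 4-thiouridine, depleted of ribosomal RNA, alkylated and sequenced, per the labels' protocols. Per the submitters' processing notes the build is mm10. The sources used here name no aligner, counter or annotation and do not give the handling of duplicates. Counts, made and deposited by the authors, are whole reads and T-to-C reads per row, in 1 pair of columns per group. Whether a pair merges both samples is not given. The Positive or Negative call beside them has no stated rule or score.

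Of 30493 rows, 47 with a date in place of a name were left out. Per name, the row richest in reads was kept (928 names had several distinct rows). Columns were scaled with edgeR 4.0.16 TMM factors (1.06, 0.959 and 0.988 in null zygotes, 2-cell embryos and WT zygotes). Genes were tested with at least 20 total reads or 10 T-to-C reads over the 3 columns, and shares with at least 20 reads in both columns. A share was called when it differed at least 2-fold and the intervals did not overlap. Intervals were computed in scipy 1.17.1 and the calls were tested on simulated data. Those data were drawn in clumps of 7 reads, as the intervals assume, so they do not test that assumption. The depths were 1270347, 4020444 and 3001472 reads. Older symbols were matched through RefSeq where they are no current symbol and belong to 1 gene.

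All members, other decay genes in the list called (up to 6 per comparison and measure), Pabpn1l and the 5 genes nearest Btg4 are named. Genes, lists and rules were chosen with earlier results of these data known. Alternatives were RLE factors, column totals, no filter, other clump sizes, summed rows and T-to-C totals.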

Additional observations from a re-analysis of the deposited data

How the results depend on the processing

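No paired analysis was possible because the table has 1 column per group, with no replicate block and no replicate to leave out. Depth limits the null column most: its floor of 21 reads is 15.7 RPM, against 5.44 in 2-cell embryos and 7.08 in WT zygotes. Member calls of Cnot2 in null zygotes, and of Cnot6, Cnot11 and Cnot8 in 2-cell embryos, were made under every alternative run on them. Of single-member ratios above 0, 243 kept their side of the threshold and 9 became calls, to which the Cnot2 calls named below add where its T-to-C ratio is 0. No member call was lost or changed direction. The uncalled ratios of Btg4 (1.05) and Cnot7 (1.14) in 2-cell embryos stood above 1 with RLE factors, against 0.867 and 0.942.

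With every read counted as 1 molecule, in null against WT zygotes 2 members were called in total reads (Cnot2, Cnot6), 2 in T-to-C reads and 2 in share (Btg4 higher and Cnot2 lower in both), and in 2-cell embryos 3 in total reads (Cnot6 higher, Cnot10 and Cnot11 lower) and 2 in T-to-C reads (Cnot8 higher, Cnot11 lower). Over all genes the counts were then 3065 in total reads, 1211 in T-to-C reads and 658 in share for null zygotes, against 535, 33 and 0, and 6682, 2328 and 932 for 2-cell embryos, against 4130, 477 and 161. With clumps in the null column only, 1 member was called in T-to-C reads in null zygotes (Btg4) and 2 in 2-cell embryos (Cnot8, Cnot11), Cnot10 was again called lower in total reads in 2-cell embryos (0.313), and all-gene counts were 855, 165 and 43 for null zygotes and again 6682, 2328 and 932 for 2-cell embryos. Smaller clumps give narrower intervals by construction. With distinct rows summed, 1 gene was called in share in null zygotes, against 0.

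With TMM, 46.0% of the calls in total reads were higher in null zygotes and 50.6% in 2-cell embryos, against 60.9% in null zygotes with column totals and 61.1% in 2-cell embryos with RLE factors. Cnot8 was called in total reads with RLE factors (2.05).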

Other observations

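The authors' deposited table marks 990 genes Positive in null zygotes, 1356 in 2-cell embryos and 664 in WT zygotes. In the authors' deposited table no gene marked Negative had more than 15 T-to-C reads in the null column or more than 30 in either WT column. Some genes at or below these counts were Positive too, 250, 288 and 80 of them in the same order. Of the members, Btg4 and Cnot6l were Positive in the 3 columns of the authors' deposited table, in the rows used here. The further row of Cnot6l was Negative in null zygotes, with 13 T-to-C reads, and Positive in the other columns. Cnot8 was Positive in 2-cell embryos alone.

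The marks of Cnot2 and Cnot7 in the authors' deposited table differ between columns with similar numbers of T-to-C reads or similar shares. Cnot2 was Negative with 30 T-to-C reads in 2-cell embryos and Positive with 31 in WT zygotes. Cnot7 was Positive with 16 in null zygotes and with 34 in 2-cell embryos, and Negative with 29 in WT zygotes, at shares of 2.01%, 1.4% and 1.46%.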
